A study of Mus musculus with 12 samples.

Results

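Snhg11, a small nucleolar RNA host gene transcribed in neurons, was followed through 12 RNA-seq libraries of mouse auditory cortex. It was the 1 gene measured here out of a list of 9 long noncoding RNAs known to be plentiful in brain, which was matched by symbol to the 20989 loci (20590 symbols) that each library reported. The other 8 listed genes, Malat1, Neat1, Meg3, Miat, Rian, Mirg, Snhg1 and Gas5, were not analysed here. The libraries came from 6 C57bl6/J mice of 4 weeks of age. Acute brain slices of each mouse were divided into their hemispheres, 1 of which was kept for 1 h in control artificial cerebrospinal fluid (aCSF) and the other for 1 h in aCSF with a pharmacological cocktail, which gave 6 control and 6 cocktail libraries paired by mouse. Per the study's methods both hemispheres then rested for a further 1 h in plain aCSF before the cortex was taken, so the levels are those after this rest. The cocktail held 50 µM bicuculline, a blocker of inhibitory GABA-A receptors, 100 µM norepinephrine, 50 µM carbamoylcholine, an agonist of acetylcholine receptors, 100 µM dopamine, 100 µM serotonin and 40 µM ascorbic acid. All 12 pieces of tissue had been sliced and incubated, so neither group stands for intact cortex, and each library averaged over all cell types of the piece.

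Small nucleolar RNA host genes are transcribed by RNA polymerase II and spliced like messenger RNA. Small nucleolar RNAs (snoRNAs) are cut out of their introns and guide the chemical modification of other RNAs, those of the H/ACA class guiding the change of uridine to pseudouridine. The spliced host RNA is a separate product, which is often regarded as noncoding, and Snhg11 is known from brain data sets as a host RNA enriched in neurons.

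The measured Snhg11 locus lay on the plus strand of chromosome 2, at chr2:158375638-158386145 of the mm10 build. These ends were the same as those of the longest Snhg11 transcript in the GENCODE M21 annotation. That transcript has 5 exons and 5864 bases, of which the last exon holds 5207 (88.8%). An open reading frame of 87 codons starts in exon 2 and stops in exon 4, and GENCODE types the transcript as protein coding. The RefSeq annotation of GRCm38.p6 types the same gene as lncRNA, with a start 75 bases further downstream. Of the 5 Snhg11 transcripts in GENCODE, 2 were typed as targets of nonsense-mediated decay and 2 as retained introns. The deposited value was 1 per gene and did not separate them.

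GENCODE places 2 snoRNA genes of 133 bases, Gm25187 and Gm25129, in intron 3 of that transcript on the same strand, and no other gene overlaps the locus. They are shown because they are the part of the primary transcript that makes Snhg11 a host gene. The first lies at chr2:158378222-158378354, beginning 2584 bases from the start of the locus, and the second at chr2:158379534-158379666, beginning 3896 bases from it. The sequences are given 5′ to 3′ from the GENCODE M21 transcripts, with capitals for every match to ANANNA, the letters of the H box of H/ACA snoRNAs, and for the ACA at the end.
Gm25187: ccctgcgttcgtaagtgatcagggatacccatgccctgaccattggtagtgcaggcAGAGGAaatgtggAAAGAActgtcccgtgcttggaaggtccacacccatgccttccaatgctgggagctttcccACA
Gm25129: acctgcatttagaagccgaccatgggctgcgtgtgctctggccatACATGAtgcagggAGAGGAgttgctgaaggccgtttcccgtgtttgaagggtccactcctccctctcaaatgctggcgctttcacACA
Both sequences end in ACA, and each holds 2 matches to ANANNA. Aligned end to end, they had the same base in 93 of 136 columns (68.4%), and their GC contents were 54.9% and 55.6%. The RNA was selected by its poly-A tail, which mature snoRNAs lack, so the values below are those of the host RNA. They say nothing of the level of either mature snoRNA. Host RNA that keeps an intron was not separated from spliced host RNA.

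**Figure D1:**
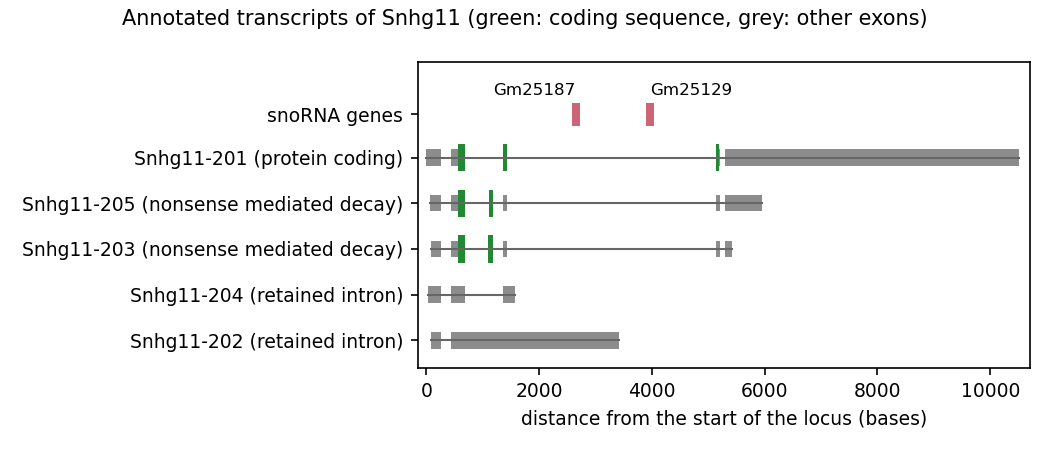
Exons of the 5 GENCODE M21 transcripts of Snhg11 and the 2 snoRNA genes, against the distance in bases from the start of the locus; thin lines are introns. The last exon of the longest transcript, at the top, holds 5207 of its 5864 bases, and both snoRNA genes lie in its intron 3.

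Levels were given as FPKM, fragments normalised to the length of the transcript and to the depth of the library, which allows levels of different genes to be compared per length. The reads behind each value were recovered from the confidence interval that accompanied it, and the libraries held 10601067 to 19768881 such reads in control and 13544297 to 17643462 in cocktail. The control library of mouse 1 stood apart, with the most reads, the lowest summed FPKM over all loci (290155, against 306085 to 321759 in the other 11 libraries) and the lowest median-of-ratios factor (0.905, against 0.981 to 1.05). This factor is the typical ratio of a library's values to the average library. The level, spread and comparison of Snhg11 are therefore also given without it, an alternative chosen after the values were seen. Markers of excitatory and inhibitory neurons, astrocytes, oligodendrocytes, microglia and endothelial cells were detected in every library. Those of excitatory neurons, which included Slc17a7 and Nrgn, summed to 2448–2794 FPKM in control and 2334–2765 FPKM in cocktail. The summed levels of choroid plexus markers (1.45–2.52 FPKM) and blood markers (0.246–2.80 FPKM) were low throughout.

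Snhg11 was one of the most abundant of the RNAs measured in the cortex slices. The loci ranked are genes with a coding transcript in the annotation the authors used, so noncoding RNAs without one were not ranked. In control aCSF its level was 446 ± 36.7 FPKM (SD, n = 6), which ranked 47 among the 20989 loci and was higher than 99.8% of them. The lowest control library had 381 FPKM, the median was 451 FPKM and the highest had 480 FPKM. Without the control library of mouse 1 the mean was 459 ± 20.8 FPKM (SD, n = 5), again at rank 47. In cocktail aCSF the level was 444 ± 22.7 FPKM (SD, n = 6), with a rank of 51, a lowest value of 408 FPKM, a median of 441 FPKM and a highest value of 479 FPKM. The rank stayed between 44 and 61 in every one of the 12 libraries, while the median locus had 2.41 FPKM in control. Each Snhg11 value rested on 29460 to 40639 recovered reads in control and 34461 to 44783 in cocktail, so that 0.206–0.278% and 0.239–0.273% of the recovered reads of a library came from this single locus.

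The coefficient of variation of Snhg11 over the 6 control libraries was 8.24%, and it was 4.53% without the library of mouse 1. Over the 6 cocktail libraries it was 5.12%. The counting SD of a single value was 0.519% on average in control and 0.509% in cocktail. Among the 12032 loci tested, the median coefficient of variation was 10.99% in control and 8.52% in cocktail. Snhg11 thus varied less between mice than most loci tested. In control 28.9% of them had a lower value (15.3% without the library of mouse 1), and in cocktail 16.996%. These loci had a median level of 10.2 FPKM in control, far under that of Snhg11. Loci next to Snhg11 in level went both ways. The control SD was 14.03 FPKM for Rtn3 and 30.6 FPKM for Cox6a1, against 36.7 FPKM for Snhg11 and 81.0 FPKM for Ywhah.

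The loci ranked around Snhg11 in control place its level among familiar coding genes, and are given as a description. Ywhah, a 14-3-3 protein, had 472 ± 81.0 FPKM (SD, n = 6) and Rtn3, a reticulon of the endoplasmic reticulum, had 461 ± 14.03 FPKM just above it. Cox6a1, a subunit of cytochrome c oxidase, had 445 ± 30.6 FPKM just below it. Ywhah was above Snhg11 in 4 of 6 mice, Rtn3 in 3 and Cox6a1 in 2.

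Among the 27 loci whose symbol RefSeq types as lncRNA, Snhg11 had the highest level in each of the 12 libraries. The next was B230217C12Rik with 28.1 ± 4.09 FPKM in control (SD, n = 6), a level 15.9 times lower, followed by Gm5113 with 5.15 FPKM. The control means of the remaining 24 were under 1 FPKM, and Snhg11 made up 92.8% of the summed control FPKM of the 27. The files cover genes that had a coding transcript in the annotation the authors used, so these 27 are genes whose type has differed between annotations, not a sample of brain lncRNAs.

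**Figure D2:**
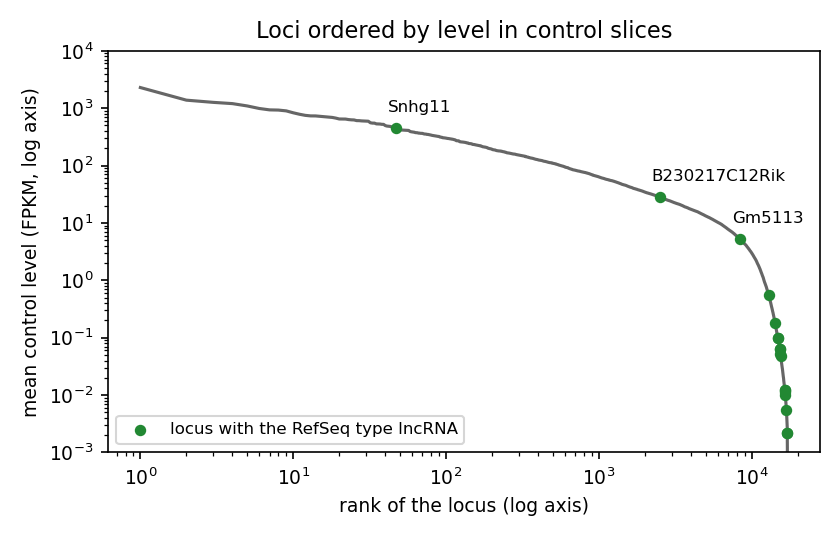
Mean level of each locus over the 6 control libraries (FPKM, log axis) against its rank (log axis); green points are loci typed as lncRNA by RefSeq, those at or under 0.001 FPKM being left out. Snhg11 sits at rank 47 with 446 FPKM, and the next lncRNA locus, B230217C12Rik, is at 28.1 FPKM.

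Snhg11 was also near the top of the measured genes that carry snoRNAs. Of the 239 loci whose GENCODE gene holds a snoRNA gene on its own strand, only 3 had a higher mean in control: Hspa8, a constitutive chaperone of the HSP70 family, with 986 FPKM, Atp5b, a subunit of the mitochondrial ATP synthase, with 487 FPKM and Tpt1, the translationally controlled tumor protein, with 481 FPKM. Eef2, the translation elongation factor, followed with 372 FPKM. The median of these host loci was 11.3 FPKM. The loci measured are genes with a coding transcript in the annotation the authors used, so hosts without one were not ranked. Of 18 other snoRNA hosts looked up by symbol, 0 were among these loci.

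To ask whether 1 h of the cocktail changed the level of Snhg11, the hemispheres of each mouse were compared. Snhg11 was higher in cocktail in 3 mice and lower in 3. In mouse 1 it was 381 FPKM in control and 441 FPKM in cocktail, which is a log2 difference of 0.21. In mouse 2 the values were 434 and 441 FPKM, and in mouse 6 they were 478 and 479 FPKM. These 3 mice had the higher value in cocktail, with a difference of more than 8 FPKM in mouse 1 alone. In mouse 3 Snhg11 was 442 FPKM in control and 408 FPKM in cocktail, in mouse 4 it was 460 and 451 FPKM, and in mouse 5 it was 480 and 441 FPKM. The groups overlapped, and all 6 cocktail values lay within the range of the control values. Without the control library of mouse 1 the control range was 434 to 480 FPKM, and 5 of the 6 cocktail values lay within it, that of mouse 3 (408 FPKM) being lower.

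**Figure D3:**
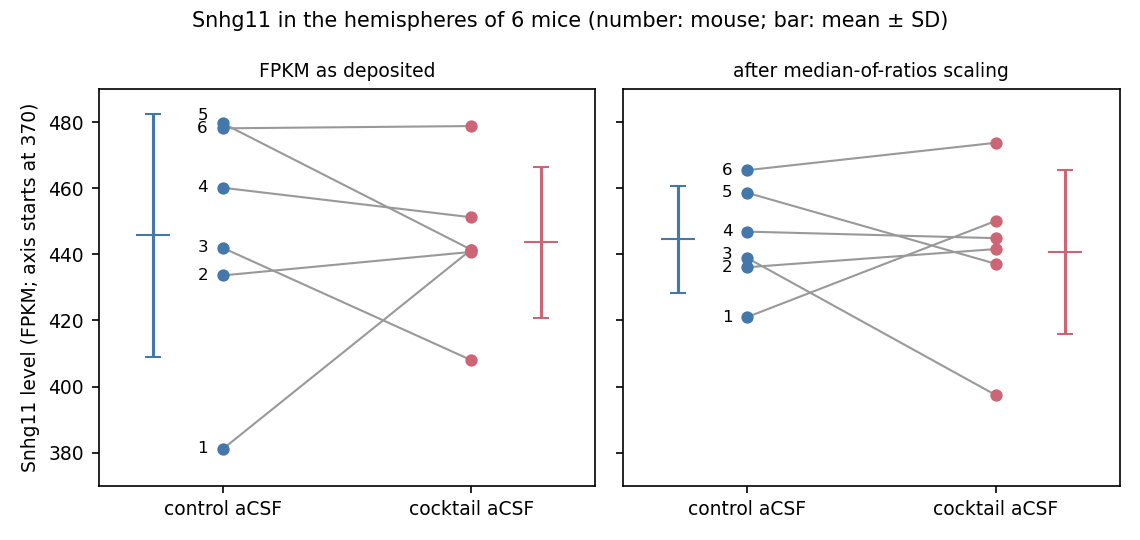
Snhg11 level in FPKM in control and cocktail aCSF, with lines joining the hemispheres of 1 mouse and bars at the side for the mean ± SD (n = 6), for the deposited FPKM (left) and after median-of-ratios scaling (right), on an axis that does not start at zero. The lines run in both directions, and the control value of mouse 1 moves from 381 to 421 FPKM with the scaling.

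The paired comparison found no change of Snhg11 past the threshold. The log2 fold change of Snhg11, cocktail against control on the log2(FPKM + 1) scale, was −0.0043 with a standard error of 0.051 (adjusted p = 0.992, limma with the mouse as a block and Benjamini-Hochberg adjustment over the 12032 loci tested). Its 95% interval, −0.12 to 0.11, corresponds to a change of between −7.69% and 7.68%, so that only larger changes lie outside what these 6 mice allow. Flipping the signs of the 6 paired differences in every combination gave p = 0.9375 (exact permutation, two-sided). Of all loci tested, 95.1% had a larger absolute log2 fold change than Snhg11, and 18.7% had a smaller standard error. The call rule, an adjusted p under 0.05, was met by 180 loci (1.5% of those tested), 147 of them higher and 33 lower in cocktail, and not by Snhg11 (limma, unadjusted p = 0.934). Snhg11 was not called by voom on the recovered reads either. In bulk tissue fewer cells of a type and less RNA per cell cannot be told apart, which holds for every level given here.

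The direction of the small difference depended on single mice. Without mouse 1 the log2 fold change was −0.047, with a 95% interval of −0.14 to 0.041, and 3 of 5 mice were lower (exact sign-flip permutation p = 0.25, the smallest possible being 0.0625). Under quantile normalization it was −0.073 (adjusted p = 0.704, limma). The value turned positive with voom (0.016) and without mouse 3 (0.018), mouse 4 (0.00045) or mouse 5 (0.019), and Snhg11 was called under none of the 14 alternative settings.

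The same libraries held changes in other genes. All 5 listed activity-regulated genes were called higher in cocktail, whereas 1.5% of all loci tested were called in either direction. They were Fos, Junb, Npas4, Nr4a1 and Arc, all immediate-early genes of neurons. The list was chosen with earlier results of these data known, so the count is a description and not an independent check. Fos, a subunit of the AP-1 transcription factor, rose from 322 ± 69.6 to 631 ± 79.5 FPKM (SD, n = 6; log2 fold change 0.99, SE 0.079, adjusted p = 2.9e-05, limma). Npas4, a neuronal transcription factor induced by calcium, rose from 160 ± 19.1 to 290 ± 14.6 FPKM (log2 fold change 0.86). Both were higher in cocktail in 6 of 6 mice. Fos thus passed from below the control level of Snhg11 to above it, while the rank of Snhg11 was 47 in control and 51 in cocktail.

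**Figure D4:**
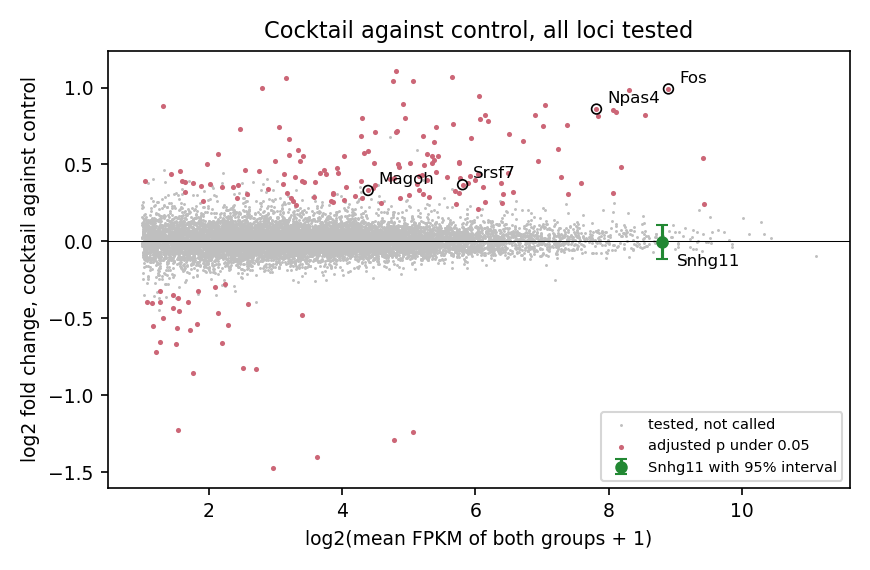
Log2 fold change, cocktail against control, against the log2 of the mean FPKM + 1 for the 12032 loci tested; red points have an adjusted p under 0.05, 4 called genes are circled and named, and Snhg11 is green with its 95% interval. Snhg11 lies at −0.0043 among the most abundant loci, below Fos at 0.99.

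None of the tested genes that host snoRNAs, are typed as lncRNA or neighbour Snhg11 on chromosome 2 was called. Of the 205 snoRNA host loci tested, 0 were called by limma, 0 by limma without the mouse block and 0 by voom. Of all 12032 loci, 180 (1.5%), 88 and 118 were called in the same fits. The counts of the hosts were not tested against these shares. Among the 205 hosts 12 (5.85%) had an unadjusted p under 0.05 (limma), against 968 (8.05%) of all loci tested. The median log2 fold change of the hosts was 0.019, against 0.0076 over all loci. The 2 hosts with the largest control means, Hspa8 and Atp5b, had log2 fold changes of 0.15 (adjusted p = 0.366, limma) and 0.028. Of the 3 lncRNA loci tested, 0 were called by limma and 0 by voom, with 0 at an unadjusted p under 0.05. With 3 loci such counts are near the background. B230217C12Rik had a log2 fold change of 0.0070. The nearest genes of the files on chromosome 2 were Ralgapb and Lbp, which binds bacterial lipopolysaccharide. Ralgapb starts 34210 bases downstream of the start of the Snhg11 locus and encodes a subunit of the Ral GTPase activating complex. Ralgapb and Lbp had log2 fold changes of −0.036 and 0.030 and were not called.

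The messenger RNAs of proteins that act on such RNAs were measured as well. Nonsense-mediated decay degrades RNAs with early stop codons, and Snhg11 has transcripts typed as its targets. Of the messenger RNAs of 14 decay factors tested, 1 (7.14%) was called, against 1.5% of all loci, and 2 (14.3%) had an unadjusted p under 0.05, against 8.05% of all loci. This was Magoh, a core protein of the exon junction complex, which rose from 17.6 ± 2.36 to 22.4 ± 3.27 FPKM (SD, n = 6; log2 fold change 0.33, SE 0.058, adjusted p = 0.0119, limma) and was higher in 6 of 6 mice. It was not called without the mouse block (adjusted p = 0.293) or without mouse 4 (adjusted p = 0.0701), and the list had a median log2 fold change of 0.015, against 0.0076 over all loci tested. Without mouse 1 the list's median was −0.018, against −0.013 over all loci. Of the messenger RNAs of 21 proteins of nuclear speckles and paraspeckles, the bodies in which Malat1 and Neat1 reside, 1 (4.76%) was called, against 1.5% of all loci. Srsf7, a splicing factor, rose from 48.1 ± 6.50 to 62.1 ± 5.27 FPKM (log2 fold change 0.37, SE 0.078, adjusted p = 0.0399, limma) and was higher in 6 of 6 mice, but the call was lost in 8 of the 14 alternatives, with adjusted p up to 0.170 (limma, without mouse 4). Without mouse 1 its log2 fold change was 0.28 (adjusted p = 0.0199, limma). The median log2 fold change of the 21 was 0.069, against 0.0076 over all loci, with 18 above 0 (54.4% of all loci were) and 5 (23.8%) at an unadjusted p under 0.05, against 8.05% of all loci. Without mouse 1 this median was 0.0048, against −0.013 over all loci, with 12 above 0, against 5109 of the 12032 loci. In that fit 1 of the 21 was called, against 157 of all loci. An unadjusted p under 0.05 (limma) was found for 5, against 1067 of all loci.

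Many snoRNA hosts begin with a 5′ terminal oligopyrimidine tract (TOP), which ties their translation to growth signals. Whether Snhg11 does was not examined. Of 16 TOP genes that do not encode ribosomal proteins, 0 were called by limma and 0 by voom, against 1.5% of all loci by limma, and 1 (6.25%) had an unadjusted p under 0.05, against 8.05%. With 16 loci a count of 0 is near that background. The most abundant of them, Eef1a1 and Tpt1, had log2 fold changes of 0.074 and 0.11. Begain and Wdr25, coding neighbours of the imprinted cluster that holds Meg3, Rian and Mirg, had log2 fold changes of 0.036 and −0.063 and were not called.

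No cell type marker was called between the groups, with 0 loci called in each of the 6 lists by limma and by voom and 0 at an unadjusted p under 0.05. At 5 or 6 loci a list and 1.5% of all loci called, these counts are near the background. Their median log2 fold changes were −0.0059 for excitatory neurons (6 loci), 0.075 for inhibitory neurons (6), 0.049 for astrocytes (5), 0.12 for oligodendrocytes (6), 0.0060 for microglia (6) and 0.033 for endothelial cells (5). The value was above 0 for 6 of 6 oligodendrocyte, 6 of 6 inhibitory neuron, 4 of 5 astrocyte and 4 of 5 endothelial markers. It was above 0 for 3 of 6 markers each of excitatory neurons and microglia, against 54.4% of all loci. Without mouse 1 the counts were the same for oligodendrocytes, inhibitory neurons, endothelial cells and excitatory neurons. They were 1 of 5 for astrocytes and 4 of 6 for microglia, against 5109 of all 12032 loci. In that fit 0 markers were called. An unadjusted p under 0.05 (limma) was found for 1 marker each of inhibitory neurons, microglia and endothelial cells. The part of these markers in the levels of Snhg11 was not tested.

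Part of the spread of Snhg11 in control moved with the library. Over the 6 control libraries its level was lower where more reads had been recovered (r = −0.918, exact permutation p = 0.00972, adjusted 0.0243; rho = −0.829, exact p = 0.0583, adjusted 0.146; 5 relations tested). Without mice 1 and 6 r was −0.874. The level was also higher where the median-of-ratios factor was higher (r = 0.973, exact permutation p = 0.00417, adjusted 0.0208; rho = 0.943, exact p = 0.0167, adjusted 0.0833), with r = 0.898 without mice 1 and 5. The factor is computed from the values of the loci themselves, and how other loci followed it was not examined. Neither rank correlation passed the adjustment. In the 6 cocktail libraries the same relations gave r = 0.242 (exact permutation p = 0.690; rho = 0.257, p = 0.658; r = 0.666 without mice 1 and 4) and r = −0.244 (p = 0.6625; rho = −0.0857, p = 0.919; r = 0.428 without mice 1 and 3). The difference between the groups in these relations was not tested. The control and cocktail levels of the same mouse gave r = 0.356 (exact permutation p = 0.472; rho = 0.314, p = 0.564; r = 0.796 without mice 1 and 5).

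Dividing each value by the factor of its library narrowed the control group and left the comparison as it was. Snhg11 then had 444 ± 16.1 FPKM in control (SD, n = 6; 421 to 465 FPKM), with a coefficient of variation of 3.62%, and 441 ± 24.8 FPKM in cocktail (397 to 474 FPKM), with 5.63%. The log2 fold change was −0.013 (adjusted p = 0.959, limma). The part of depth or library quality in the unscaled spread was not tested.

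**Figure D5:**
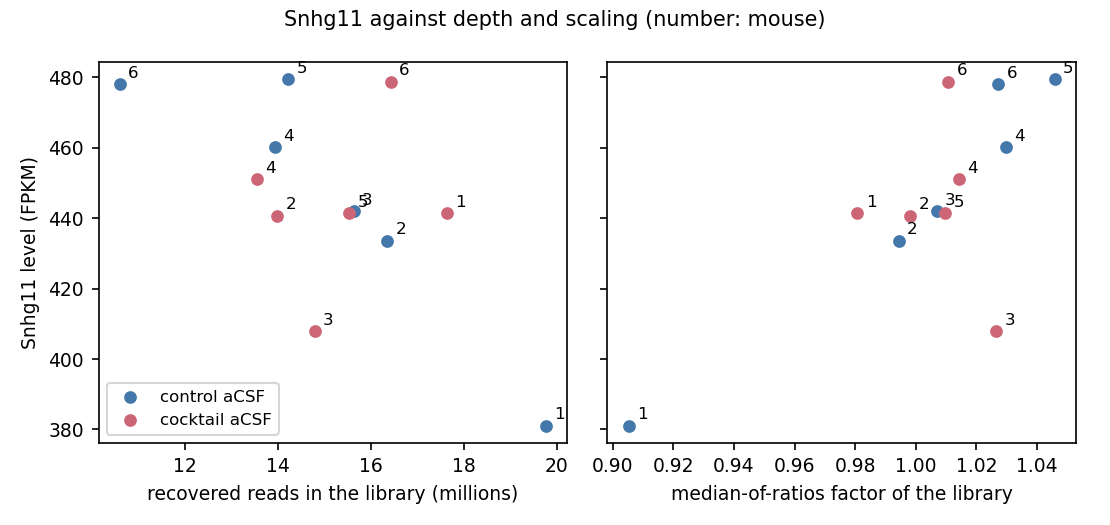
Snhg11 level in FPKM against the reads recovered per library (left) and against the median-of-ratios factor (right), with the mouse number beside each of the 6 control and 6 cocktail libraries. The control libraries fall with depth from 478 FPKM (mouse 6) to 381 FPKM (mouse 1), and the cocktail libraries scatter between 408 and 479 FPKM.

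Over the 12 libraries the profiles most like that of Snhg11 were those of Dcp2, the mRNA decapping enzyme (r = 0.966), Napb, the neuronal beta-SNAP protein that recycles SNARE complexes after membrane fusion (r = 0.965), and Ogt, the enzyme that adds O-GlcNAc to proteins (r = 0.945), all on log2(FPKM + 1). These points share library scaling and, in pairs, a mouse. The median r of the other 12031 loci with Snhg11 was 0.299, and 69.9% of the values were above 0. After median-of-ratios scaling that median was 0.00014, and the r of Dcp2, Napb and Ogt was 0.835, 0.908 and 0.843. Napb was then the most alike of all loci, followed by Strbp, an RNA-binding protein (0.855), and Cntn3, a neuronal adhesion protein (0.851). None of Dcp2, Napb and Ogt was called between groups by limma, their log2 fold changes being 0.031, 0.0088 and −0.026. Over the 11 libraries without the control library of mouse 1, the unscaled r was 0.945 for Dcp2, 0.929 for Napb and 0.887 for Ogt (ranks 1, 2 and 6), and the median over loci was 0.097. The order after scaling also changed without that library. Dcp2 was then at rank 1 (r = 0.921), Napb at 3 (0.904), Cntn3 at 8 (0.855), Ogt at 9 (0.855) and Strbp at 14 (0.850).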

How the data were processed

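Per the study's methods, poly-A RNA was sequenced as single, strand-specific reads. Ribosomal reads were removed with BWA 0.6.1, and the rest were aligned to mm10 with TopHat 1.4.1 (1 placement per read). The authors computed FPKM with Cufflinks 1.3.0 and bias correction, over RefSeq genes with at least 1 coding transcript. A second deposited table, from HTSeq 0.6.1p1 and DESeq2 1.6.3, holds the authors' fold changes and p-values, which were not used, and a mean normalized count signal, used as a check only: 38162 for Snhg11, against 38245 recovered reads on average. No strand setting was stated for counting.

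Reads were recovered from the Cufflinks intervals (82.8% of 36412 values under 20 reads were whole within 0.05), so intervals and depths are approximate, and counting SDs cover counting error only. Loci whose FPKM averaged 1 or more were tested on log2(FPKM + 1) with limma 3.58.1 (R 4.3.3), with a mean-variance trend, the mouse as a block, Benjamini-Hochberg adjustment and a threshold of 0.05. The mouse identity in the labels pairs the libraries, and the deviations of the hemispheres of 1 mouse correlated at 0.216 to 0.406 (median 0.337), against −0.42 to 0.445 (median −0.071) for hemispheres of different mice. On simulated data for the 12032 loci tested, the fit recovered 194 of 200 changed genes. Each of these was given a larger change, in absolute size, than any within the interval of Snhg11. Recovery by size of effect was not tested, which includes effects as small as those within the interval of Snhg11. SciPy 1.17.1 gave the exact permutation tests. The members and lists were chosen with earlier results of these data known. The snoRNA host, lncRNA and chromosome 2 classes, the level neighbours, the relations and the values without the control library of mouse 1 were chosen after the values were seen. RefSeq types were matched by symbol (19405 of 20590 symbols). Genes named from each list were those called, up to 4, or else the 2 most abundant, and the 3 loci with the highest r were named.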

Additional observations from a re-analysis of the deposited data

Results flagged for a closer look

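Snhg11 itself had no value flagged by Dixon's test at 95% in either group or in the within-mouse differences. Its control value in mouse 1 was apart from the nearest by 0.533 of the range. The within-mouse difference of mouse 1 was apart by 0.568 of the range. Among 22 named genes and 66 groups of 6 values, 5 held a value far from the others by Dixon's test at 95%, where chance gives about 3.3, and all 5 came from mouse 1. In the control library of mouse 1, Srsf7 was at 35.5 FPKM (others 47.8 to 53.8 FPKM) and Rtn3 at 435 FPKM (others 460 to 472 FPKM). The within-mouse log2 difference of mouse 1 was 0.14 for Rtn3 (others −0.070 to −0.023) and 0.30 for Ogt (others −0.17 to −0.040). In the cocktail library of mouse 1, Begain was at 48.4 FPKM (others 57.1 to 60.4 FPKM).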

How the results depend on the processing

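Snhg11 was not called under any of the 14 alternatives (adjusted p 0.704 to 0.999, limma or voom). The lowest end of their 95% intervals was −12.01% (quantile normalization), and the highest end was 10.7% (without mouse 3). The log2 fold change was below 0 in 10 and above 0 in 4. The value reversed with voom on recovered reads (0.016), and leaving out 1 mouse in turn gave −0.047 to 0.019. The number of loci called, 180, was 88 with no replicate block for the mouse, 118 with voom and 104 (without mouse 4) to 181 (without mouse 6) when 1 mouse was left out; the cause was not tested. Without the control library of mouse 1 the coefficient of variation of Snhg11 in control moved from 8.24% to 4.53%. Tests between listed lncRNAs were not run, because 1 alone was measured. With 6 mice, changes in Snhg11 of between −7.69% and 7.68% lie within the interval, whereas the counting SD of a single value is about 0.5%.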
